A study of Mus musculus with 6 samples.

Results

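The cells described here are the endothelial cells of arterial character in mouse lungs at postnatal day 21 (P21), taken from 4 single-cell RNA-sequencing libraries. A barcode was a member when it had at least 1500 unique molecular identifiers (UMIs, 1 per captured transcript) in the Bdnf libraries or 700 in the Hgf libraries, at most 25% mitochondrial UMIs, and at least 2 of the 4 endothelial genes Pecam1, Cldn5, Egfl7 and Tie1. It also had at least 2 of the 5 arterial genes Gja5, Bmx, Dkk2, Gja4 and Efnb2, Gja5 or Bmx among them. It had no UMI of Slc6a2 (venous) or Prox1 (lymphatic), and at most 1 UMI in total over Col1a2, Ptprc, Etv5 and Rtkn2, which mark fibroblasts, leukocytes and alveolar epithelial type 2 (AT2) and type 1 (AT1) cells. This gave 532 cells in the Bdnf control, 537 in the Bdnf iPCKO, 299 in the Hgf control and 360 in the Hgf iPCKO library. The 1728 members were part of 21251 endothelial cells that passed every step but the arterial, Slc6a2 and Prox1 ones, and of 70426 lung barcodes past the UMI and mitochondrial steps. All 6 libraries of the series held 78318 such barcodes.

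Each library held cells of 2 mice of the same genotype, mixed in equal numbers, so that every genotype was measured as 1 library without a replicate. The Bdnf control mice carried Bdnf lox/lox alleles and the Hgf control mice Hgf lox/lox alleles, and the paper names no CreERT2 transgene for them. The Bdnf iPCKO and Hgf iPCKO mice carried the same floxed alleles together with Pdgfrb(BAC)-CreERT2, in which the Pdgfrb promoter drives a tamoxifen-inducible Cre recombinase in pericytes and other mural cells, so that arterial endothelial cells are not the cells the deletion was aimed at. Tamoxifen was injected at 50 µg on each day from P1 to P3. The paper gives this for the crosses and does not set the controls apart. If the controls lacked the transgene, they differed from the mutants in it as well as in the deletion. Lungs were digested with enzymes and CD45+ and Ter119+ blood cells were removed on magnetic beads before capture, so shares of cells are those of dissociated and depleted suspensions.

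Arterial endothelial cells line the vessels that carry blood from the heart into the capillary bed. They are known for Notch signalling, for gap junctions built from connexins, for ephrin-B2 on their surface, and for a matrix rich in elastic fibres that they share with the surrounding smooth muscle. In the lung they pass into a capillary bed of general capillary cells (gCap) and large aerocytes (aCap), and pericytes and smooth muscle cells cover them from outside.

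The cells were chosen by detected UMIs of 5 arterial genes, whose levels are therefore given as a description only, as CPM, the UMIs of a gene scaled to all UMIs of the members of that library. All series of 4 values run in the order Bdnf control, Bdnf iPCKO, Hgf control and Hgf iPCKO. Gja5, the connexin 40 gene of arterial gap junctions (chromosome 3 from 96812009 to 96984732 of GRCm39, plus strand), had 690, 453, 524 and 202 CPM. It was highest in the Bdnf control and lowest in the Hgf iPCKO library. Bmx, a cytoplasmic tyrosine kinase of arterial endothelium (chromosome X from 162975838 to 163041195, minus strand), had 223, 275, 436 and 472 CPM and so ran the other way. Dkk2, a secreted modulator of Wnt signalling (chromosome 3 from 131790336 to 131886065, plus strand), had 33.1, 12.6, 98.7 and 18.4 CPM. Gja4, connexin 37 (chromosome 4 from 127205214 to 127207851, minus strand), had 316, 215, 380 and 241 CPM. Both genes were lower in each mutant library than in its control. Efnb2, the gene of ephrin-B2 (chromosome 8 from 8667226 to 8711249, minus strand), had 1179, 978, 1120 and 1373 CPM.

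The log2 ratio of Hgf iPCKO over Hgf control was -1.37 (95% interval -1.58 to -1.16) for Gja5 and -2.40 (-3.12 to -1.78) for Dkk2. In the Bdnf pair the ratios were -0.61 for Gja5 and -1.38 (-1.98 to -0.82) for Dkk2. Because these genes chose the cells, the same levels were also taken over all endothelial cells, without the arterial rule. Gja5 then had 102, 60.7, 46.9 and 16.2 CPM, Dkk2 5.25, 2.13, 9.21 and 1.51 CPM, Gja4 114, 77.2, 103 and 63.8 CPM, and Bmx 41, 45.6, 46.6 and 46.4 CPM. Gja5, Dkk2 and Gja4 kept the lower value in the mutant of each pair, and Bmx was at like levels in 4 libraries. These levels hold the members too, so they cannot tell a lower level per arterial cell from a lower share of arterial cells. The intervals here and below are exact 95% intervals of counting error alone. They hold neither the spread between mice nor that between preparations, no test of a difference between genotypes is possible with 1 library each, and UMIs of cells from 2 pooled mice are not independent animals.

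Members made up 13.1% (12.1 to 14.2), 10.1% (9.28 to 10.9), 6.0% (5.36 to 6.69) and 5.22% (4.71 to 5.78) of the endothelial cells of their libraries, with exact Clopper-Pearson 95% intervals. These shares depend on depth, since a deeper cell is more likely to show the genes of the rule. They also depend on the level of Gja5, which over all endothelial cells was lower in each mutant, while Bmx was at like levels. The members' median UMIs were 4487.5, 3898, 3098 and 2738.5 per cell, against 4165.5, 3230.5, 2176 and 2005.5 in the other endothelial cells. After thinning every cell to 700 UMIs the shares were 3.97, 2.99, 2.31 and 1.74%, in the same order from high to low. Exactly 2 of the 5 arterial genes were detected in 153, 214, 93 and 189 members, and all 5 in 18, 10, 31 and 8. Just outside the rule, 34, 51, 38 and 42 endothelial cells had Gja5 or Bmx as their single arterial gene. A larger number, 666, 579, 462 and 404 cells, had Gja4 and Efnb2 without Gja5 and Bmx. In these, Mgp (matrix Gla protein, an inhibitor of calcification) had 47.9, 52.2, 97.4 and 199.7 CPM, against 693, 1357, 746 and 1484 CPM in the members with exactly 2 arterial genes. Another 5, 5, 3 and 2 cells met the rule but lay just below the UMI minimum.

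Against the other endothelial cells of the same library, genes were counted as higher or lower when they differed at least 2-fold, with an interval that left out 0 on the log2 scale, in each of the 4 libraries. Of 12073 genes with at least 50 UMIs in every library, 149 were higher in the arterial cells (1.23%) and 178 lower (1.47%). The rule chose the cells on this contrast, so these are descriptions. Of 12 arterial markers that the rule did not use, 6 were higher in all 4 libraries: Sema3g, Fbln5, Htra1, Cytl1, Mecom and Ltbp4. Cytl1, which codes for a small secreted cytokine-like protein, had 625, 697, 2098 and 2644 CPM in arterial cells and 124, 73.0, 148 and 79.1 CPM in the others. Fbln5, fibulin 5 of the elastic fibre, had 615, 693, 569 and 305 CPM against 247, 187, 122 and 87.5 CPM. Every arterial value of both genes lay above every value of the other endothelial cells.

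The 12 markers did not behave alike. Ltbp4, a latent TGF-beta binding protein needed for elastic fibres, had 542, 434, 866 and 670 CPM against 145, 118, 124 and 89.5 CPM. Sema3g, a secreted semaphorin, had 937, 770, 1051 and 877 CPM against 332, 302, 482 and 413 CPM, and Mecom, a transcription factor of arterial cells, 360, 362, 252 and 258 CPM against 112, 145, 71.4 and 66.5 CPM. Other textbook arterial genes were spread more widely over the endothelium. The Notch ligand Dll4 had 645, 376, 547 and 564 CPM in arterial cells and still 206, 176, 315 and 236 CPM in the others. Sox17, an arterial transcription factor, had 187, 234, 186 and 241 CPM against 207, 243, 227 and 203 CPM, and was above the others in the Hgf iPCKO library alone. Stmn2, a microtubule regulator, had 286, 116, 259 and 46.0 CPM against 171, 76.4, 224 and 76.3 CPM.

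Of the markers of other endothelial types, those of aCap cells and most lymphatic ones were called lower in the arterial cells, and most gCap and venous ones were not called. All 8 aCap markers were lower in every library, among them Car4, a carbonic anhydrase, with 95.5, 80.0, 324 and 146 CPM against 558, 589, 1270 and 790 CPM. Of 8 gCap markers 2 were lower in every library, the apelin receptor Aplnr and Sema3c, a secreted semaphorin. The 8 had median log2 ratios of -0.58, -0.78, -0.88 and -0.86, against -0.06, -0.07, -0.11 and -0.11 over all genes. Their sum, in which abundant genes weigh most, was 10158, 8407, 8233 and 6405 CPM against 9447, 8380, 7844 and 6628 CPM. Of 6 lymphatic markers 4 were lower, Mmrn1, Flt4, Ccl21a and Reln, beside the exclusion of cells with Prox1. None of 7 measured venous markers was called lower. The venous transcription factor Nr2f2 had 58.0, 118, 23.8 and 32.2 CPM against 229, 218, 190 and 215 CPM. An Nr2f2 UMI was present in 56, 78, 15 and 27 members. Barcodes below 200 UMIs had 193, 164, 132 and 149 CPM of it, so that over all members these counts do not tell expression from free RNA. Vwf, the von Willebrand factor gene of larger vessels and a marker on the venous list, was higher in arterial cells in all libraries, with 1603, 1300.3, 2091 and 1463 CPM against 640, 519.8, 521 and 521 CPM.

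**Figure D1:**
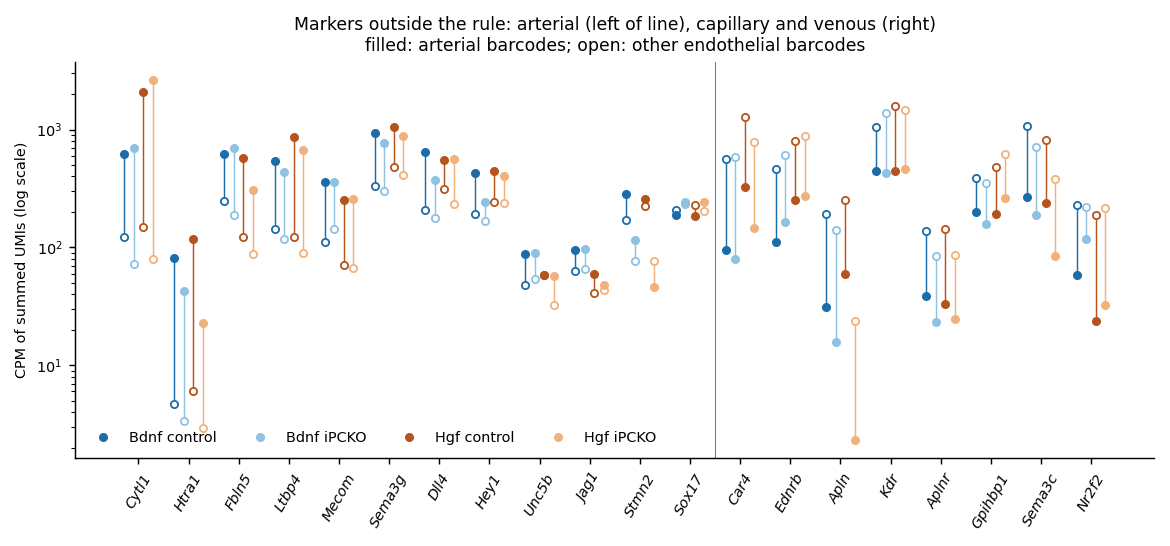
CPM on a log axis of 12 arterial markers outside the rule and of capillary and venous markers in the 4 libraries, with filled symbols for arterial and open symbols for the other endothelial cells. Cytl1, Htra1, Fbln5, Ltbp4, Mecom and Sema3g lie above the other endothelial cells in every library, whereas Sox17 overlaps with them and Car4 and Nr2f2 lie below.

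The genes with the largest differences in favour of the arterial cells showed what the rule had not used. Olfm2, an olfactomedin secreted in the vessel wall, had 870, 658, 1224 and 669 CPM against 13.5 to 17.3 CPM in the others. Sfrp1, a secreted Wnt antagonist, had 154, 92.9, 405 and 204 CPM against 1.49 to 2.49 CPM. Hey2, the Notch target that takes part in arterial specification, had 34.4, 36.8, 73.2 and 72.9 CPM against 1.49 to 2.6 CPM. Ephx2, the soluble epoxide hydrolase that breaks down vasodilator lipids, differed from 38.5-fold to 79.3-fold and ranked first by the smallest of its 4 ratios, while Sfrp1 had a larger ratio in 3 of the 4 libraries. Further genes among the 20 highest were Plat (tissue plasminogen activator), the endosulfatase Sulf1, the chemerin receptor Cmklr1 and the desaturase Fads2. At the low end stood the lymphatic genes Ccl21a, Reln and Mmrn1.

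Part of the extracellular matrix list stood on the arterial side. Of 29 measured elastic fibre and arterial matrix genes 8 were higher in every library, namely Fbln2, Fbln5, Mfap5, Ltbp4, Lox, Fbn1, Mgp and Htra1, and 3 of these, Fbln5, Ltbp4 and Htra1, are also among the arterial markers above. Another 3 were lower, Mfap2, Col4a1 and Col4a2. Lox, the lysyl oxidase that cross-links elastin and collagen, had 94.1, 148, 138 and 110 CPM against 9.63 to 18.2 CPM. Mgp had 1271, 1653, 3180 and 3024 CPM against 219, 273, 231 and 388 CPM. Eln, tropoelastin itself, had 3124, 4126, 1316 and 1349.8 CPM against 1819.6, 1851, 763 and 1074 CPM, and so was higher in each library without reaching 2-fold in all 4. Smooth muscle cells make these proteins too, and their 7 marker genes summed to 65.5, 91.2, 30.6 and 44.7 CPM in arterial cells against 20.9, 33.0, 26.6 and 39.8 CPM in the others. The part of smooth muscle RNA in the matrix values was not tested. In the Notch list 2 of 18 genes were higher, Hey2 and Nrarp. Over all genes of this contrast 1.23% were higher and 1.47% lower. Of 24 growth factors and guidance cues that endothelial cells send to mural cells 4 were higher and 4 lower. The chemokine Cxcl12, with 2108, 1798, 1143 and 932 CPM against 261, 183, 265 and 150 CPM, stood on the first side, and Pdgfb, which recruits pericytes, on the second. Nos3, endothelial nitric oxide synthase, had 148, 172, 92.7 and 110 CPM against 67.5, 76.8, 27.6 and 21.2 CPM.

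Members were not uniform. They were split by the 2 leading genes of the rule into cells with Gja5 without Bmx, cells with both, and cells with Bmx without Gja5. These classes held 250, 200 and 82 cells in the Bdnf control, 192, 215 and 130 in the Bdnf iPCKO, 95, 123 and 81 in the Hgf control and 82, 83 and 195 in the Hgf iPCKO library. Cells with Bmx without Gja5 were therefore 15.4, 24.2, 27.1 and 54.2% of members, and the Hgf iPCKO library was the only library in which they were the majority. The class follows depth in part, since cells with both genes had the highest median UMIs in every library (5450.5, 4433, 4347 and 4752) and the cells with Gja5 alone had 3956.5, 3193, 2452 and 1908. It also follows the level of Gja5 itself, which over all endothelial cells was 102, 60.7, 46.9 and 16.2 CPM and so lower in each mutant. The shares of the classes and the ratios within them are therefore descriptions, and a change in the makeup of the members cannot be told apart from a change in Gja5.

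Cells with both genes stood apart from cells with Gja5 alone in genes outside the rule. Of 4972 genes that could be compared 35 were higher in all 4 libraries (0.704%) and 54 were lower (1.09%). Cytl1 had 1044, 1216, 3280 and 4314 CPM in cells with both genes and 138, 223, 398 and 620 CPM in cells with Gja5 alone. Mgp had 2143, 2352, 4838 and 4652 CPM against 237, 663, 651 and 916 CPM. Hey2 had 59.9, 65.6, 127 and 127 CPM against 16.8, 20.0, 21.3 and 23.8 CPM. All 4 libraries therefore showed the same order for these genes, and Fbln5 followed it with 929, 1017, 775 and 475 CPM against 220, 397, 235 and 124 CPM. On the other side, Car4 had 31.1, 32.8, 76.8 and 15.6 CPM in cells with both genes and 152, 125, 729 and 305 CPM in cells with Gja5 alone. Sema3c had 65.8, 58.5, 16.3 and 24.5 CPM against 441, 307, 544 and 153 CPM. Cells with Gja5 alone thus had more of these capillary transcripts.

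Cells with Bmx without Gja5 showed another pattern. Against cells with Gja5 alone, 11 of 4915 genes were higher in all libraries (0.224%) and none was lower. They included the fibrinogen-like gene Fgl2, P-selectin (Selp), the matricellular Ccn2, carboxypeptidase E (Cpe), cytoglobin (Cygb), apolipoprotein E (Apoe), the matrix genes Ccdc80, Mgp and biglycan (Bgn), and Rasl11a, a Ras-like GTPase, of which those outside the lists were chosen for naming after their values were seen. Selp, the adhesion molecule stored for leukocyte rolling, had 83.6, 267, 74.3 and 80.5 CPM in these cells and 12.3, 22.7, 14.2 and 9.54 CPM in cells with Gja5 alone. Against cells with both genes, 26 of 6054 were higher (0.429%) and 5 lower (0.0826%), Hey2 among the latter. In the Bdnf libraries these cells also had the venous transcript Nr2f2 at 282 and 358 CPM, whereas they had 74.3 and 37.2 CPM in the Hgf control and Hgf iPCKO libraries. Ackr3, a scavenger receptor for CXCL12 and a member of the venous marker list, was named for this class after its values were seen. It had 1131 and 1094 CPM in the Bdnf and 237 and 115 CPM in the Hgf libraries. Nr2f2, Selp and Ackr3 are all on the venous marker list. In the Bdnf libraries, Nr2f2 in these cells lay above the other endothelial cells and above barcodes below 200 UMIs. Some members there thus carried venous transcripts, and the name arterial rests for them on the rule. The same class name covered cells with different levels of Nr2f2 and Ackr3 in the Bdnf and Hgf libraries.

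**Figure D2:**
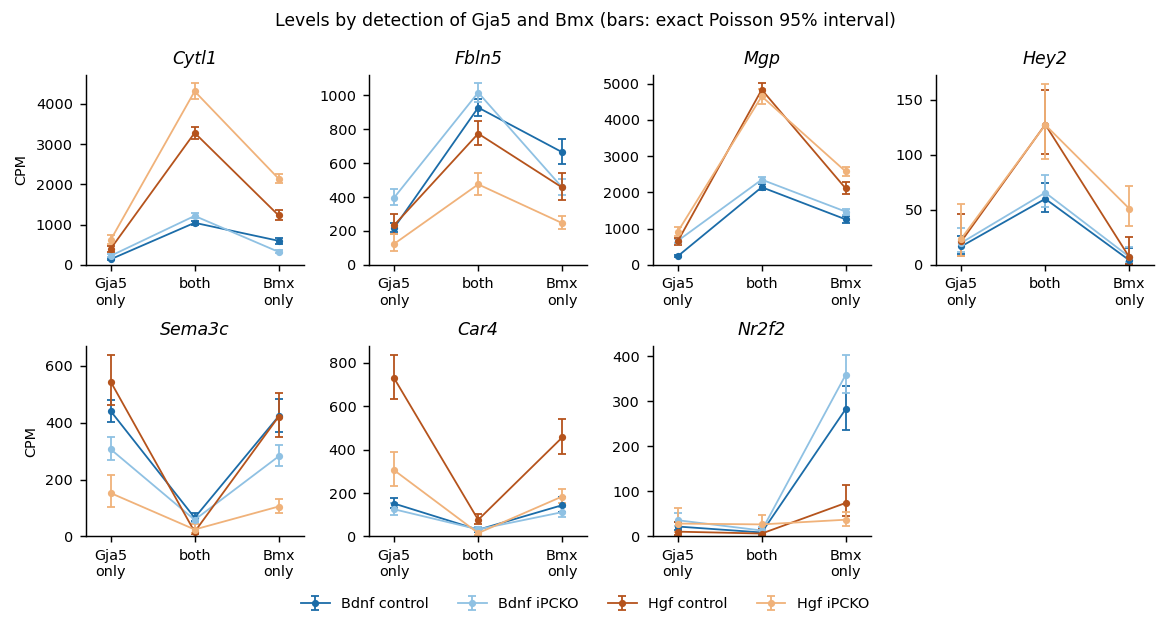
CPM with exact Poisson 95% intervals of Cytl1, Fbln5, Mgp, Hey2, Sema3c, Car4 and Nr2f2 in members with Gja5 alone, with both genes and with Bmx alone, for each library. Cytl1, Fbln5, Mgp and Hey2 peak in the cells with both genes, Sema3c and Car4 are lowest there, and Nr2f2 stands out in the cells with Bmx alone of the Bdnf libraries.

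The members held 2963982, 2851648, 1175680 and 1303901 UMIs, so counts in the Hgf libraries are less precise. Their median mitochondrial shares were 7.79 to 8.14%, with 6.12 to 6.93% in the other endothelial cells. RNA of epithelial cells was present in all libraries. Summed over 5 airway genes it came to 1364, 4124, 2071 and 5871 CPM, and over 7 AT2 genes to 3354, 4857, 3227 and 1388 CPM, while barcodes below 200 UMIs had up to 38099 and 30706 CPM. Without the 15, 33, 9 and 11 members in which these genes exceeded 2% of UMIs the airway sums were 676, 939, 529 and 1368 CPM. Of 7 immune genes 4 to 6 had no UMI. Haemoglobin and other erythroid genes summed to 25, 132, 18.7 and 119 CPM, higher in both mutants.

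In the Bdnf pair, genes were called when they had at least 20 UMIs in both libraries together, differed at least 2-fold and had an interval that left out 0. Of 12451 genes 410 were higher in Bdnf iPCKO arterial cells (3.29%) and 259 lower (2.08%). The genes with the largest rises by this rule came from airway epithelium. Muc5b, an airway mucin, had 145 UMIs in 3 mutant members, 117 of them in a single cell, and none in the control, which made it at least 50.2-fold higher at a floor of 3 UMIs. Reg3g, an antimicrobial lectin, had a log2 ratio of 5.81, and -0.09 without the members over 2% of epithelial UMIs. Scgb3a1, a secretoglobin, had 3.46, and -0.66 without them. On the lower side, the chemokine Ccl5 had 25 UMIs in a single control cell and none in the mutant, and of the 42 control UMIs of Top2a, a topoisomerase of dividing cells, 29 came from a single cell. In the arterial cells all of these rested on a few barcodes and are not described further. In the other endothelial cells Top2a had a ratio of -1.87, lower in the mutant too, and Ccl5 had 4.40, the other way.

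In the Bdnf pair none of 19 measured Notch genes and none of 29 elastic fibre genes was called. With 3.29% of all genes higher and 2.08% lower, lists of this size hold few calls in any case. Of the 12 arterial markers only Stmn2 was, with a log2 ratio of -1.30 (-1.49 to -1.11). Stmn2 was lower in the mutant among the other endothelial cells too. Dll4 had a ratio of -0.78 and Hey1, a Notch target, of -0.80, both short of 2-fold, whereas Eln, Mgp and Fbln5 were all above their control levels (3124 and 4126 CPM, 1271 and 1653 CPM, 615 and 693 CPM). Ppp2r2c, a regulatory subunit of protein phosphatase 2A, had 91.1 and 23.1 CPM and a ratio of -1.97 (-2.39 to -1.58). Rbp7, a retinol-binding protein of endothelial cells, had 121 and 40.7 CPM and a ratio of -1.57 (-1.89 to -1.26). Rnase1, a secreted ribonuclease, had 60.4 and 12.6 CPM and a ratio of -2.24 (-2.82 to -1.74). All 3 were called lower in the Hgf pair too. In the other endothelial cells of the Bdnf pair, the ratios were -1.43 (-2.77 to -0.31) for Ppp2r2c, 0.14 (-0.35 to 0.64) for Rbp7 and -1.49 (-2.83 to -0.38) for Rnase1, and in barcodes below 200 UMIs they were -1.74, -0.66 and -3.14.

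Some genes of acute activation were higher in the Bdnf iPCKO arterial cells. All 18 immediate early genes had intervals above 0, and 6 passed 2-fold, with a median log2 ratio of 0.67 in arterial and 0.51 in the other endothelial cells. In the Hgf pair 3 of 18 passed, beside 4.56% higher over all genes, 15 intervals lay above 0, and the medians were 0.40 and 0.07. The controls differed nearly as much as the Bdnf pair. For Hgf control over Bdnf control the median was 0.62, with 15 of 18 intervals above 0. Egr3, a growth-response transcription factor, had 56.7 CPM in the Bdnf control and 181 in the Bdnf iPCKO library. Fosb had a ratio of 1.01 and Atf3, a stress-induced factor, of 1.38. Heat shock genes, which like these respond to the handling of tissue, had a median of -0.01 with none of 13 called, and a part of the handling in the difference was not tested. Among 13 leukocyte adhesion genes and chemokines, Selp (ratio 1.17, 0.89 to 1.46) and Sele, E-selectin (1.44, 0.77 to 2.18), were higher and Ccl5 was lower, where 3.29% of all genes were higher and 2.08% lower. Nr2f2 was higher too, at 1.03 (0.76 to 1.30). Of 7 measured genes on the venous marker list Selp and Nr2f2 were the 2 called higher, and none was lower. The list median was 0.52, beside -0.18 in the other endothelial cells. Cells with Bmx without Gja5, in which Selp and Nr2f2 stood out, were 15.4% of members in the Bdnf control and 24.2% in the Bdnf iPCKO library. Within the cells with both genes Selp had a ratio of 0.02 and Nr2f2 of 0.56. In cells with Gja5 alone and in cells with Bmx alone, the Selp levels given above were higher in the mutant. The venous list median was 0.22 within the cells with both genes, 0.71 with Gja5 alone and -0.05 with Bmx alone.

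In the Hgf pair 459 of 10057 genes were higher in Hgf iPCKO arterial cells (4.56%) and 743 lower (7.39%). Here some arterial genes were among the lower ones. Of the 12 arterial markers outside the rule 2 were lower (16.7%, beside 7.39% of all genes), Htra1 and Stmn2, and none higher. Stmn2 was lower in the mutant among the other endothelial cells too, by the levels given above. The markers' median log2 ratio was -0.20, beside -0.44 in the other endothelial cells and -0.08 over all genes. To look at arterial genes without choosing and comparing in the same libraries, a set was taken from the Bdnf control library. Its genes were at least 2-fold higher there in arterial than in other endothelial cells, the genes of the rule left out. Of 298 such genes measured in the Hgf pair, 64 were lower in the mutant (21.5%) and 14 higher (4.70%), whereas of all 9182 genes with 50 UMIs in the Bdnf control 7.63% were lower and 4.03% higher. Their median log2 ratio was -0.33, against -0.12 over all these genes and -0.07 for the same 298 genes in the other endothelial cells. Genes at least 2-fold lower in arterial cells of the Bdnf control were also called more often than all genes. Of 326 of these, 15.3% were lower and 12.6% higher, with a median of -0.09. The mirror comparison, with genes chosen in the Hgf control and measured in the Bdnf pair, gave 12 lower (2.88%) and 16 higher (3.85%) of 416, with 1.7% lower and 2.87% higher over 10563 genes.

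Within the cells with both genes the median of the arterial-high genes was -0.41 and within those with Gja5 alone -0.35, but within those with Bmx alone it was 0.16. These classes are set by Gja5, which was itself lower in the Hgf iPCKO library, so the medians are given as a description. Of the 64 genes, 7 were also among the 12 of the Bdnf pair, which is 10.9% of the former and 58.3% of the latter. A gene in both had been high in arterial cells of both controls, and so also of the control it was compared with. The overlap is therefore a description, and its size over all genes is not given. They were Ppp2r2c, Rbp7, the chemokine receptor Cxcr4, Alox5ap, which serves leukotriene synthesis, the cytokine receptor subunit Il27ra, the carboxylesterase Ces2b and Atp13a3, a polyamine transporter. The last 5 were chosen for naming after their values were seen.

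Several genes that marked control arterial cells were close to absent in the Hgf iPCKO library. Ppp2r2c (chromosome 5 from 37025631 to 37112426 of GRCm39, plus strand) had 128 CPM in the Hgf control and 1 UMI in the mutant, a log2 ratio of -6.81 (-12.70 to -4.89). Rbp7 (chromosome 4 from 149534116 to 149539437, minus strand) had 162 and 3.83 CPM, a ratio of -5.26 (-7.04 to -4.15) with 5 UMIs left. Sfrp2, a secreted Wnt modulator, had 56.1 CPM and 1 UMI, a ratio of -5.62 (-11.52 to -3.67). Klk10, a kallikrein peptidase (chromosome 7 from 43430448 to 43436793, plus strand), had 28.1 CPM and no UMI, at least 12.2-fold lower. The drop in Ppp2r2c and Rbp7 was also present within the cells with both Gja5 and Bmx, at -7.23 and -6.25. In the other endothelial cells the ratios were -4.09 (-7.50 to -2.41) for Ppp2r2c, -3.24 (-6.68 to -1.45) for Rbp7 and 0.41 (-0.97 to 2.02) for Sfrp2, from levels of at most 2.42 CPM. Klk10 had no UMI there in the Hgf control and 0.115 CPM in the mutant, too little for a direction.

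A second set was lower in arterial cells with much smaller ratios in the other endothelial cells. Plac8, a small cysteine-rich protein, had 276, 147, 504 and 49.9 CPM in the 4 libraries and a ratio of -3.33 (-3.73 to -2.97) in the Hgf pair, against -1.11 (-1.27 to -0.95) in the other endothelial cells. Cd55, which protects cells from complement, had 192, 98.2, 287 and 29.9 CPM and ratios of -3.25 (-3.78 to -2.78) and -0.49 (-0.68 to -0.30). Vcam1, the adhesion molecule for leukocytes, had 105, 125, 221 and 21.5 CPM and ratios of -3.34 (-3.98 to -2.80) and -0.72 (-0.96 to -0.49). The Hgf iPCKO value was the lowest of the 4 libraries for all 3 genes. A Vcam1 UMI was found in 17.3, 22.3, 30.1 and 4.72% of members. Within cells with both Gja5 and Bmx the ratios were -3.36 for Plac8, -4.52 for Cd55 and -3.63 for Vcam1, each as far from 0 as over all members or farther.

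**Figure D3:**
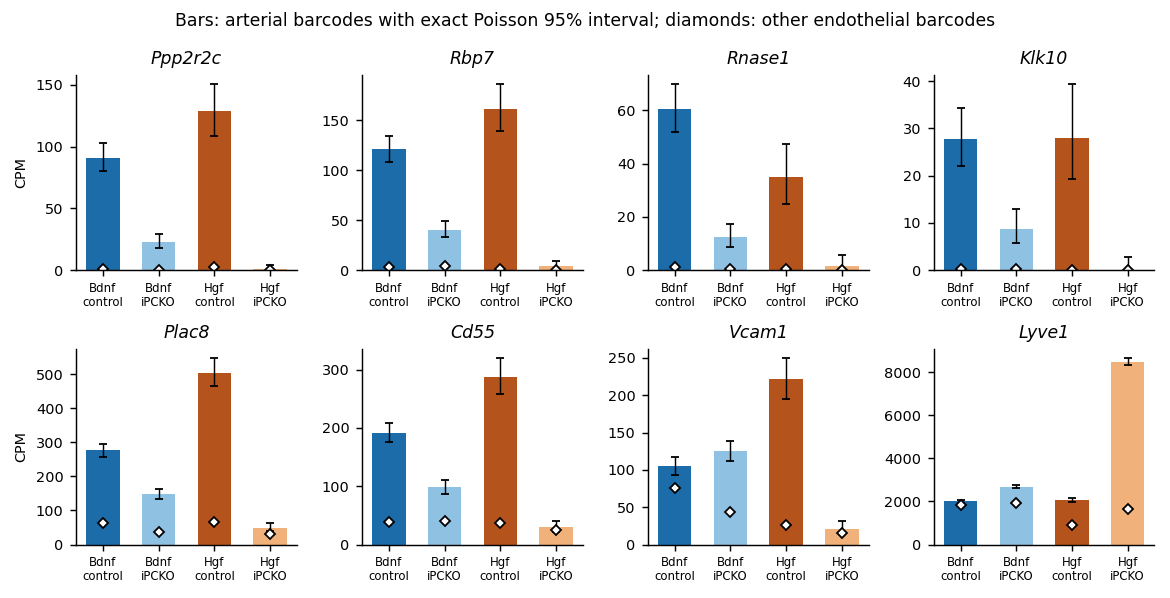
CPM in arterial cells of the 4 libraries with exact Poisson 95% intervals as bars and error bars, and in the other endothelial cells as diamonds, for Ppp2r2c, Rbp7, Rnase1, Klk10, Plac8, Cd55, Vcam1 and Lyve1. In the first 7 genes the Hgf iPCKO bar is the lowest, and for Lyve1 it is the highest with 8488 CPM.

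Lyve1, a hyaluronan receptor best known from lymphatic vessels (chromosome 7 from 110448585 to 110462460, minus strand), went the other way. It had 1999, 2678, 2071 and 8488 CPM in arterial cells, with a ratio of 2.04 (1.97 to 2.10) in the Hgf pair. The other endothelial cells had 1854, 1946, 915 and 1637 CPM and a ratio of 0.84 (0.81 to 0.87). The change did not rest on few cells, since 82.3, 87.3, 73.6 and 93.1% of members had a UMI, the median rate was 13.6, 21.2, 12.5 and 75.3 UMIs per 10000 UMIs, and the 5 cells with most UMIs held 7.83% of them in the Hgf iPCKO library. It was present in each class, with ratios of 1.92 in cells with both genes, 2.03 with Gja5 alone and 2.77 with Bmx alone. Cells with a Prox1 UMI had been left out by the rule, so the levels of lymphatic genes in the members were in part fixed by it.

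Flow response genes called in the Hgf pair were lower, and genes that set the tone of the vessel went both ways. Of 15 flow response genes 3 were lower in the Hgf pair and none higher, beside 7.39% lower and 4.56% higher over all genes. The list median was -0.39, beside -0.30 in the other endothelial cells and -0.08 over all genes. Klf2, the transcription factor induced by laminar shear, had 686, 970, 2101 and 942 CPM and a ratio of -1.16, with the Hgf control standing above the other 3 libraries. Thbd, thrombomodulin, had a ratio of -1.55 (-1.79 to -1.32) and Heg1, a junctional receptor, of -1.27 (-1.44 to -1.10). Among 24 vasoactive genes 3 were higher and 3 lower, with a median of 0.14, beside 0.13 in the other endothelial cells. Adm, the vasodilator adrenomedullin, was higher at 2.83 (1.32 to 5.38), and its receptor gene Calcrl was lower with 2939, 2005, 1989 and 599 CPM and a ratio of -1.73 (-1.85 to -1.61). Ptgs1, cyclooxygenase 1, was higher at 2.04 (1.64 to 2.48). Nos3 (ratio 0.25) and Edn1, endothelin 1 (0.20), were not called.

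Matrix genes called in the Hgf pair were lower, and those for signals to mural cells went both ways. Of 29 matrix genes 6 were lower and none higher, with a list median of -0.36, beside -0.26 in the other endothelial cells and -0.08 over all genes, of which 7.39% were lower and 4.56% higher. Fbln2, fibulin 2 of the arterial elastic fibre, had 493, 457, 710 and 246 CPM and a ratio of -1.53. Fbn1, fibrillin 1, had a ratio of -1.07 (-1.40 to -0.76) and Htra1, a secreted protease that cuts matrix and TGF-beta family ligands, of -2.34. Eln (0.04) and Mgp (-0.07) were at their control levels. Of 22 growth factors and guidance cues 5 were lower (22.7%) and 3 higher (13.6%), both above these shares over all genes, with a median of -0.30 beside -0.11 in the other endothelial cells. Pdgfb had a ratio of -1.06 (-1.53 to -0.62), Pdgfa -1.02 (-1.78 to -0.32) and Sema3c -1.49, while Angpt2, the antagonist of Tie2 signalling, had 2.22 (0.94 to 4.07) from 5 and 28 UMIs. Within the cells with both Gja5 and Bmx Sema3c had a ratio of 0.58 (-0.79 to 1.98), too wide for a direction. The Notch list stayed near its control level with a median of -0.01, 1 gene higher and 1 lower of 19, and Dll4 at 0.05, Hey1 at -0.14 and Notch1 at 0.45.

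Many interferon response and antigen presentation genes were lower in the mutant libraries than in their own controls. The list of interferon response genes had 10 of 24 lower in the Bdnf pair and 13 of 20 in the Hgf pair, with no gene higher and medians of -0.89 and -1.33. Over all genes 2.08% and 7.39% were lower. In the other endothelial cells the medians were -1.02 and -1.48, so both groups of endothelial cells had medians below 0. For antigen presentation 3 of 18 and 11 of 16 genes were lower, all 18 and all 16 ratios were below 0, and the medians were -0.73 and -1.52 (other endothelial cells -0.80 and -1.24). Ifi44, an interferon-induced protein, had 46.9, 8.42, 45.9 and 7.67 CPM. Gbp7, a guanylate-binding GTPase of host defence, had 173, 76.8, 144 and 56.0 CPM. Both controls lay above both mutants for these genes, as they did for the light chain of MHC class I, B2m, with 1592, 798, 1698 and 475 CPM, and for the class I heavy chain H2-D1 with 2561, 1310.5, 2112 and 944 CPM. The ratios of B2m were -1.0 (-1.07 to -0.92) and -1.83 (-1.97 to -1.71), and those of Oasl2, a 2'-5' oligoadenylate synthetase-like protein, -1.13 and -2.92. Ifit1, which binds foreign RNA, had -0.63 (-1.30 to 0.00) in the Bdnf pair, so not every gene of the list was clear of 0.

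**Figure D4:**
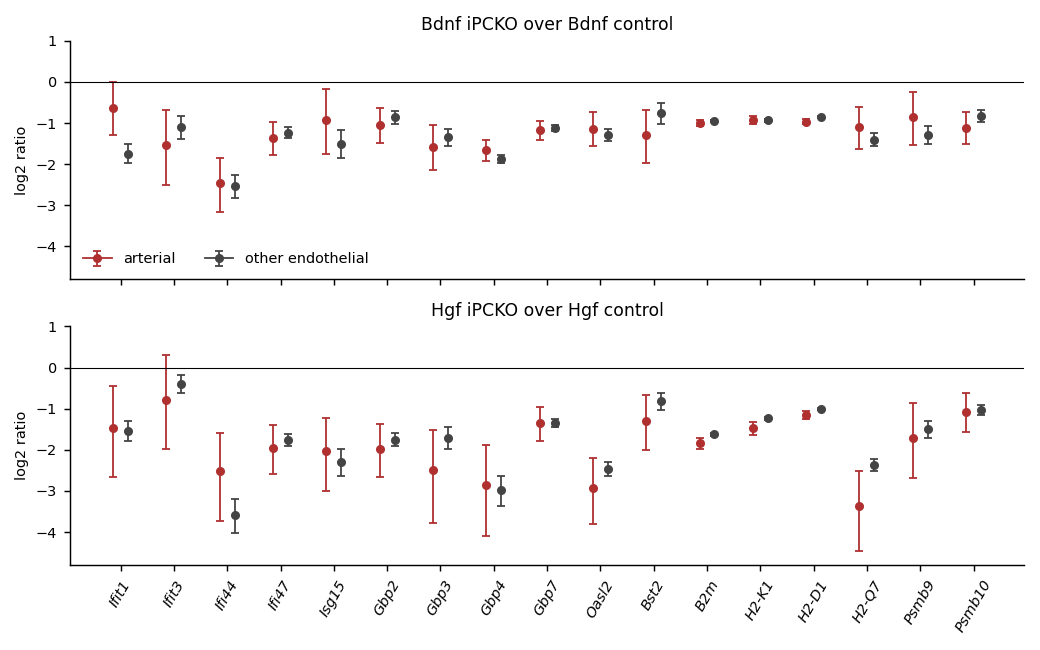
Log2 ratio of mutant over control with its exact 95% interval for interferon response and antigen presentation genes in the Bdnf and Hgf pairs, for arterial and other endothelial cells. All points shown lie below 0 in both pairs and in both cell groups, with B2m at -1.0 and -1.83 in the arterial cells.

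Interferon-activated factors are known to read the interferon-stimulated response element, and its letters were looked for in the promoters of both lists. In promoter windows of RefSeq (GRCm38.p6, 250 bases before to 50 after each start), the letters TTTC, any 2 bases and TTTC again were searched on both strands. They occurred in 1131 of 32851 promoters (3.44%), which is 3.99% of 27025 genes, and in 13 of 22 matched interferon response genes (59.1%) but only 2 of 14 antigen presentation genes (14.3%). The stretches below show the match closest before the start in capitals, on the strand of the gene. They are given for 4 genes called lower in both pairs and for B2m, which was at the 2-fold limit in the Bdnf pair. In Gbp3 and Bst2 a further match overlaps the marked letters and is not marked. A match is a description of the letters and not a site shown to be bound.
Gbp2: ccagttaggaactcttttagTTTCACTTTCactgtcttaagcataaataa
Gbp7: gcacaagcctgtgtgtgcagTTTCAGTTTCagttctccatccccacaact
Gbp3: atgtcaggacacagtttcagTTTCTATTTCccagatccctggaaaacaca
Bst2: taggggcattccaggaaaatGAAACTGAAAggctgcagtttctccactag
B2m: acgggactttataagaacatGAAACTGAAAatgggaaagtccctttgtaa
They lie at chr3:142620584-142620633 (Gbp2), chr3:142530263-142530312 (Gbp7) and chr3:142559985-142560034 (Gbp3) on the plus strand, chr8:71537567-71537616 (Bst2) on the minus strand and chr2:122147528-122147577 (B2m) on the plus strand. The matches end 49, 43, 29, 114 and 129 bases before the start. In B2m and Bst2 the element is read from the opposite strand, as GAAA, 2 bases and GAAA. The log2 ratios in the Bdnf and Hgf pairs were -1.05 and -1.98 for Gbp2, -1.17 and -1.35 for Gbp7, -1.58 and -2.50 for Gbp3, and -1.29 and -1.30 for Bst2, which keeps enveloped virus on the cell surface.

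Some clock genes were higher in each mutant, and in the Hgf pair they were the larger part of the list. Of 15 measured genes 6 were higher in the Bdnf pair (3.29% of all genes), with a median of 0.71, and 10 were higher and 1 lower in the Hgf pair (4.56 and 7.39% of all genes), with a median of 2.21. The other endothelial cells had medians of 0.68 and 2.12. Tef, a transcription factor of the clock's output, had 35.4, 73.3, 43.4 and 267 CPM and a ratio of 2.61 (2.19 to 3.08) in the Hgf pair. Nr1d1, the repressor REV-ERB-alpha, had 26, 36.8, 28.9 and 203 CPM, and Per3, a period gene, 4.72, 22.1, 3.40 and 19.2 CPM. Arntl, the BMAL1 gene of the positive limb, ran against them with 28.3, 18.9, 27.2 and 2.3 CPM and a ratio of -3.36 (-5.92 to -1.89) from 3 remaining UMIs. The time of day at which lungs were taken is not given in the sources used here. The E-box letters CACGTG, which read the same on both strands, stood in 4 of 14 clock genes (28.6%) and in 8.09% of all genes, as in Tef (chr15:81802526-81802571, plus strand, ending 121 bases before the start) and the cryptochrome gene Cry1 (chr10:85185089-85185134, minus strand, 54 bases).
Tef: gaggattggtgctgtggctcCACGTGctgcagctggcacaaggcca
Cry1: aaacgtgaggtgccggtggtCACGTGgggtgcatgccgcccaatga

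Glucocorticoid-responsive genes were higher with them in the Hgf pair. There 10 of 14 genes were higher, beside 4.56% of all genes, with a median of 1.60 (other endothelial cells 1.18), and in the Bdnf pair 3 of 13, beside 3.29%, with a median of 0.74 (0.57). Fkbp5, a co-chaperone of the glucocorticoid receptor, had 42.9, 76.8, 10.2 and 162 CPM. Tsc22d3, also called GILZ, had 111, 187, 83.4 and 269 CPM. Zbtb16, another receptor target, had 255, 216, 71.5 and 179 CPM, so its Hgf iPCKO value lay below both Bdnf libraries although its ratio was 1.32 (0.96 to 1.70). The metallothioneins Mt1 and Mt2, which bind zinc and copper, were the leading rises of the Hgf pair. Mt1 had 40.8, 138, 36.6 and 659 CPM and a ratio of 4.16 (3.73 to 4.65) in arterial and 1.78 (1.68 to 1.89) in the other endothelial cells. For Mt2 the ratios were 4.15 (3.59 to 4.83) and 1.76 (1.64 to 1.89). Of the 360 Hgf iPCKO members, 94 had a UMI of Mt1 and 47 of Mt2, and the top cell held 13.7 and 19.3% of their UMIs. Lpl, lipoprotein lipase, with 240, 261, 114 and 903 CPM, and Mylip, a ubiquitin ligase of the LDL receptor, with 96.5, 188, 66.3 and 653 CPM, were as high in ratio in the other endothelial cells (3.05 and 2.97) as in the arterial cells (2.98 and 3.29). Barcodes below 200 UMIs showed rises in the Hgf pair as well. Their ratios were 2.09 for Mt1, 2.38 for Mt2, 3.68 for Fkbp5, 2.81 for Lpl and 2.85 for Mylip.

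**Figure D5:**
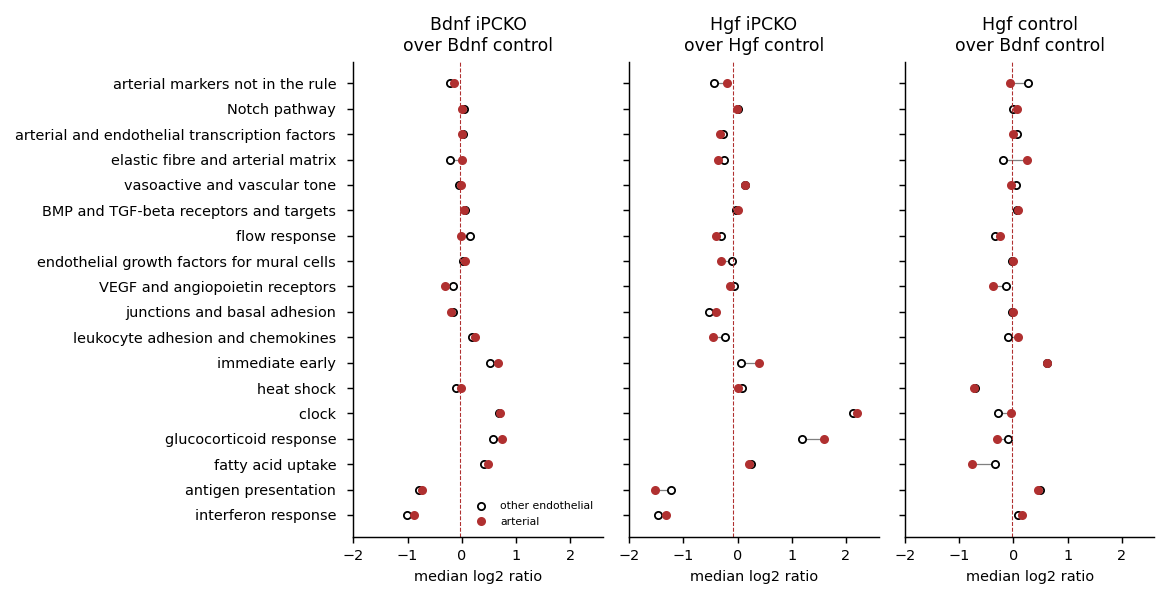
Median log2 ratio over the genes of 18 lists in the Bdnf pair, the Hgf pair and the pair of controls, with filled symbols for arterial and open symbols for other endothelial cells and a dashed line at the median of all genes. Clock genes stand at 0.71 and 2.21 and interferon response genes at -0.89 and -1.33 in the mutant pairs, while the Notch pathway stays near 0.

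The receptors of the deleted factors were scarcely seen in arterial cells. Ntrk2, the receptor TrkB of BDNF, had 39, 46, 14 and 4 UMIs in all members together, or 13.2, 16.1, 11.9 and 3.07 CPM, less than the 26.9, 29.4, 33.0 and 8.96 CPM of the other endothelial cells. Met, the HGF receptor, had 61, 61, 20 and 20 UMIs, or 20.6, 21.4, 17.0 and 15.3 CPM. Barcodes below 200 UMIs had 214, 148, 180 and 56.7 CPM of Met, so that the level in members lay below that of free RNA. The Met values did not differ beyond counting error within either pair. Ngfr, the p75 neurotrophin receptor, had 3 UMIs in the Bdnf control and none in the other libraries.

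The 2 control libraries also differed from each other. With 11407 genes measured, 548 were higher in Hgf control than in Bdnf control arterial cells (4.8%) and 485 lower (4.25%). Tmem181c-ps, a pseudogene whose reads may be shared with its parent gene, had 262 and 1.70 CPM in the Bdnf and Hgf controls. Ifi213, an interferon-inducible gene, was at least 18.2-fold lower in the Hgf control and H2-Ea, an MHC class II gene, at least 7.93-fold lower, both with no UMI there. Of 13 heat shock genes 6 were lower in the Hgf control, with a median of -0.73, and Hspa1a, an inducible HSP70, had 314 and 106 CPM. Immediate early genes (median 0.62, 3 of 18 higher) and antigen presentation (0.45, 3 of 18 higher) lay above those of the Bdnf control, whereas the medians of interferon response (0.15) and clock genes (-0.04) were near 0. Among arterial genes, Cytl1, Mgp and Fads2 were higher in the Hgf control (625 and 2098, 1271 and 3180, 63.8 and 342 CPM) and Eln was lower, with a ratio of -1.25. Background strain, litter and preparation cannot be told apart from the floxed allele in this pair. Where values of the Bdnf and Hgf pairs are set side by side or ranked over all lung libraries, this is a description and not a comparison of the 2 deletions.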

How the data were processed

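Lungs were analysed from 4 BD Rhapsody whole-transcriptome libraries. UMIs were counted by the authors with STARsolo against GRCm39 (STAR 2.7.10a in the submitters' processing notes, Gencode vM33 in the methods, M26 in the data availability statement). No barcode was filtered, and reads that fit several genes were shared out by expectation maximization. The deposited values are hence estimated counts, not normalized, with 8.50 to 9.95% fractional entries in the lung libraries, which total 169814433, 186701379, 73446420 and 69403166 UMIs.

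Members were chosen by the rule in the report, and the members and gene lists were chosen with earlier results of these data known. Estimated counts were summed over members, rounded with 0.5 going up, and scaled to the members' total (CPM). Intervals were exact Poisson (CPM), conditional binomial (ratios) and Clopper-Pearson (shares), all at 95%, and cover counting error only. With 1 library per genotype no test was made and no p-value computed. Log2 ratios have an offset of 0.5 UMI. A gene was called at 20 UMIs in both libraries together, a 2-fold difference and an interval without 0. For the arterial contrast and the classes this had to hold in each library. Where a library had no UMI, the fold was taken at 3 UMIs, and no list median moved with this floor. The procedure was tested on simulated counts.

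The text names the genes of the rule, members of the lists, the 12 largest rises and falls of each pair by the interval bound nearest 0, and the 20 highest and 10 lowest genes of the arterial contrast, and says where another gene was chosen after its values were seen. Mitochondrial, ribosomal, haemoglobin, predicted and sex-linked marker genes were not ranked. Doublets were kept. Scrublet at an expected rate of 0.1, with the lower threshold of a pair used for both libraries, marked 21, 38, 3 and 4 members, which were left out as an alternative. No member barcode was shared between libraries, and 243 to 432 barcodes past the filters were shared by each pair. Gene coordinates are of GRCm39. Promoter sequences are those of RefSeq on GRCm38.p6. Python 3.11.15, numpy 2.4.6, scipy 1.17.1, pandas 2.3.3, scanpy 1.11.5 and matplotlib 3.10.9 were used. The cortex libraries, imaging and the authors' clusters were not used here. Some items are not reported here.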

Additional observations from a re-analysis of the deposited data

How the results depend on the processing

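With 1 library per genotype the spread between mice is unknown, and the lower depth of the Hgf libraries limits ratios of genes with few UMIs. No paired analysis was possible because the labels carry no replicate numbers and each group is 1 library. Leaving out a replicate was not possible either. The alternatives that required both Gja5 and Bmx, left out members with an Nr2f2 UMI or left out members over 2% of airway and AT2 UMIs were chosen after seeing the data. The causes of the moves below were not tested, beyond the fewer cells, genes or UMIs that each alternative leaves.

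The shares of endothelial cells, given in the order Bdnf control, Bdnf iPCKO, Hgf control and Hgf iPCKO, became 9.37, 6.06, 4.13 and 2.48% with 3 of the 5 arterial genes, 11.1, 7.64, 4.37 and 2.39% with Gja5 required, 4.94, 4.03, 2.47 and 1.20% with both Gja5 and Bmx, and 3.97, 2.99, 2.31 and 1.74% after thinning to 700 UMIs. They were 11.9 and 8.74% in the Bdnf libraries without Nr2f2 members, and 7.0 and 5.95% in the Hgf libraries at 1500 UMIs. In all of these the mutant's share lay below its control's, but every setting still counted detection of Gja5. Over all endothelial cells Gja5 was itself lower in each mutant, while Bmx was at like levels. These settings therefore cannot tell a lower share of arterial cells from a lower level of Gja5.

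Genes higher in the Bdnf pair numbered 270 with both Gja5 and Bmx, 242 without Nr2f2 members, 117 after thinning and 208 at a minimum of 50 UMIs, and genes lower 129 after thinning and 123 at 50 UMIs. In the Hgf pair 219 were higher and 297 lower after thinning, and 229 and 419 at 50 UMIs. Between controls 217 were higher and 225 lower after thinning, and 338 were higher at 50 UMIs. The other 99 counts and shares stayed within 1.5 times or within their interval.

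Of the called ratios of named genes, 3 changed sign under some alternative. Reg3g in the Bdnf pair became -0.99 with 3 arterial genes, -0.29 with both and -0.087 without epithelial members. Scgb3a1 became -0.10, -0.64 (Gja5 required), -0.43 (both), -0.46 (no Nr2f2) and -0.66 (no epithelial members). Sema3c in the Hgf pair became 0.58 (-0.79 to 1.98) with both. Among these values, only those of Scgb3a1 with Gja5 required and without epithelial members had an interval that left out 0. Where an alternative left a gene without a UMI in both libraries it gave no value, as for Nr2f2 without the members that had it. The ratio of a named gene left its interval in another 498 recomputations and stayed within it in 4225. Medians of gene lists moved beyond the typical width of their genes' intervals in 20 recomputations and stayed within it in 970.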
